A study of Rattus norvegicus with 12 samples.

Results

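The 43 genes described here encode proteins that take a cell into mitosis, build the spindle, pull the chromosomes apart and separate the daughter cells. They come from a named list of mitosis and spindle genes, matched to the gene name of each array probe, older names included. Of the 43, 41 were found by name, and all 41 were among the 18517 genes that could be tested. Ect2 and Anln were found only through the description of a probe whose name is an accession, so their values are given apart and enter no count of calls, though their promoters are among those described. RNA came from left kidneys of inbred F344 rats, all female and operated on when 10 weeks old. Ischemia-reperfusion injury (IRI), here unilateral, means that blood flow to 1 kidney is cut off and later let back in. How long it was cut off is not given in the labels. The groups were injured kidneys 3 days after the operation, injured kidneys 7 days after it, and kidneys of sham-operated rats 7 days after it, with 4 rats in each group and 1 array per rat. Sham kidneys were taken at day 7 alone, which leaves day 3 without a sham group of its own time.

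Mitosis starts when cyclin B and its kinase Cdk1 become active, after which kinases of the polo, aurora and NIMA families build a spindle of microtubules. Kinetochores tie each chromosome to the spindle, and a checkpoint holds the cell until every chromosome is attached. The anaphase-promoting complex, a ubiquitin ligase, then destroys securin and cyclin B, the sister chromatids part, and a contractile ring divides the cell. Resting tubule cells of the kidney rarely divide, and surviving tubule cells are known to re-enter the cell cycle after ischemic injury. Many genes of this kind are silenced in resting cells by the DREAM complex and switched on in G2 and M phase through B-Myb (Mybl2) and FoxM1 (Foxm1). In human and mouse cells these factors act on promoters through the cell cycle genes homology region, CHR, read as TTTGAA or TTCGAA, often near CCAAT boxes, which bind the factor NF-Y.

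Promoters from RefSeq, on the rat build GRCr8, were found for 36 of the 43 genes and cover 250 bases before to 50 after the gene start. TTTGAA and TTCGAA were searched on both strands, with TTCAAA as the reverse of the first, the second being its own reverse. CCAAT was searched as such and as its reverse, ATTGG. Matches of the 2 motifs may share bases at their ends. CHR letters stood in 26 of the 36 promoters (72.2%), against 19.5% of all 27457 RefSeq promoters of the same length and 13.8% of the 10266 that belong to tested genes. At most 50 bases from the start, CHR letters stood in 18 of the 36, against 5.46% of all promoters. CCAAT was present in 26 (72.2%), against 37.7% of all promoters, and at least 2 copies were present in 21 (58.3%), against 11.5%. CHR letters near the start together with at least 2 copies of CCAAT occurred in 11 (30.6%), against 0.59% of all promoters. These matches describe letters in a window and were tested against no binding data.

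The last 150 bases before the start are shown for 8 genes, 5′ to 3′ on the gene's strand, with CHR and CCAAT letters in capitals. Cdk1, Ccnb2, Cks2 and Pttg1 show CCAAT copies upstream of CHR letters, Plk1 has its CHR letters after the start, Cdc20 has CHR letters between a pair of CCAAT copies, Nek2 has CCAAT without CHR, and Mybl2 has neither. In Ccnb2 the 3 copies of CCAAT begin 134, 101 and 68 bases before the start, 33 bases apart, and CHR letters begin 43 bases before it. In Nek2 the pair of CCAAT copies is also 33 bases apart.
Cdk1, + strand, chr20:19265143-19265292: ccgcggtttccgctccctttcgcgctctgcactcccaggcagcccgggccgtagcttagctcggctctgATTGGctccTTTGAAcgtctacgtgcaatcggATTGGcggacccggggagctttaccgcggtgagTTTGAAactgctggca
Ccnb2, - strand, chr8:79981659-79981808: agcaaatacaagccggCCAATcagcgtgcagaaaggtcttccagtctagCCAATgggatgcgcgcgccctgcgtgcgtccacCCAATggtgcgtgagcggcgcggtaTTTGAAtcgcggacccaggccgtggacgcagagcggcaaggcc
Cks2, - strand, chr17:13727520-13727669: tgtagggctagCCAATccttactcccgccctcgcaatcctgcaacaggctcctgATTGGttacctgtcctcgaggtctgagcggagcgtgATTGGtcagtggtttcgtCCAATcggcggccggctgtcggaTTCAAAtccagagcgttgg
Pttg1, - strand, chr10:28406327-28406476: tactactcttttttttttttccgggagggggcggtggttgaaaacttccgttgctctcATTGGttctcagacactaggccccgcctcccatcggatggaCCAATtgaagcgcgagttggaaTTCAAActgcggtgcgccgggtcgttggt
Plk1, + strand, chr1:186147508-186147657: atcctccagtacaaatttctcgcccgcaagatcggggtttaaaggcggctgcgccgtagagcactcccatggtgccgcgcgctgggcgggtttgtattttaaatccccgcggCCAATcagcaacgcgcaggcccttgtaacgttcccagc
Cdc20, - strand, chr5:137255800-137255949: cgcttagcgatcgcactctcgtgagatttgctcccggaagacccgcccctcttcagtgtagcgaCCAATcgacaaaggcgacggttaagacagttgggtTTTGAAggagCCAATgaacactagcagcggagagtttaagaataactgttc
Nek2, + strand, chr13:105936659-105936808: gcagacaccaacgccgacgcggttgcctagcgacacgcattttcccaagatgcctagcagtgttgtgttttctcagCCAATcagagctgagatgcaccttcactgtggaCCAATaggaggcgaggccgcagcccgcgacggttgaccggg
Mybl2, + strand, chr3:172124655-172124804: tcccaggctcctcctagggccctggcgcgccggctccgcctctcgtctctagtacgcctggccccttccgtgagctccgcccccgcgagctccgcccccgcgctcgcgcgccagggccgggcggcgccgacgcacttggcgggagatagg

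**Figure D1:**
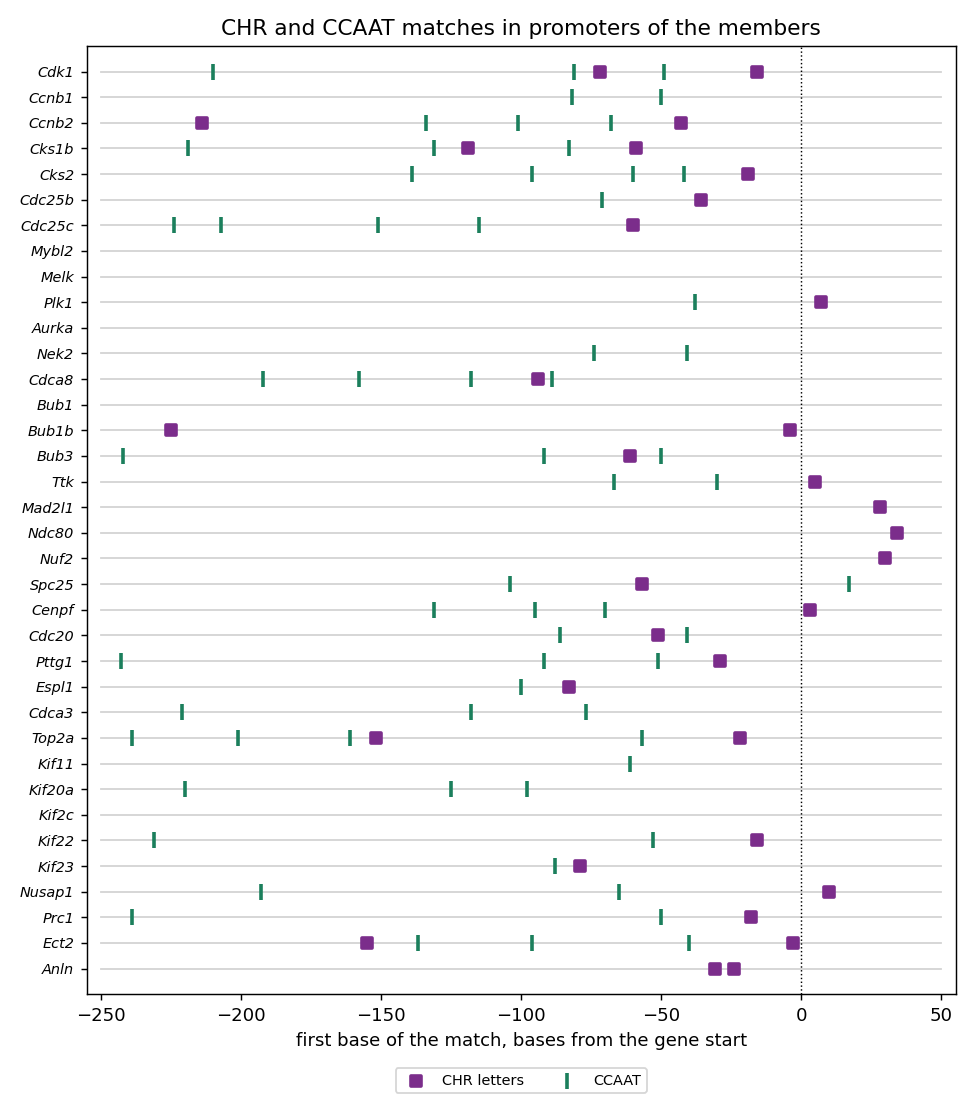
Positions of CHR letters (purple squares) and CCAAT (green bars) in 36 promoters, in bases from the gene start on the x axis, with 1 gene per line. In 18 of the 36 promoters CHR letters lie at most 50 bases from the start, and 21 hold at least 2 copies of CCAAT.

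The assay was a single-colour Agilent microarray, on which a spot is brighter the more of its RNA is present. Values are log2 of the spot signal minus log2 of the array's 75th percentile, so they set arrays beside each other for 1 gene, and levels of different genes are not compared. The 75th percentile was 665 to 743 intensity units at day 3, 422 to 562 at day 7 and 225 to 394 in sham, and 73.3% to 80.6%, 67.1% to 76.2% and 65.0% to 76.0% of spots were well above background in these groups. No member's spot was saturated, and the number of arrays limits the precision. Certain arrays stood apart within their group. Relative to each member's sham mean, the median over the 41 members was 3.51, 3.46, 2.60 and 3.47 on day 3 arrays 1 to 4, 1.45, 1.31, 1.68 and 0.42 on day 7 arrays 1 to 4, and 0.02, -0.30, 0.38 and -0.18 on sham arrays 1 to 4. Day 3 replicate 3 was the lowest of its group for 31 of 41 members, day 7 replicate 4 was the lowest for 29, and sham replicate 3, which had the lowest unscaled signal, was the highest for 24. All kidney markers checked, from Umod of the thick limb to Nphs1 of the podocyte, were detected.

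Nearly all of the genes were higher at day 3 than in sham. Of 41 members, 40 were higher and 0 lower at day 3 (limma, Benjamini-Hochberg adjusted p under 0.05), against 57.3% of all tested genes called, 24.2% higher and 33.1% lower. The median log2 difference of the members was 3.21, against -0.13 over all tested genes, and 38 of the 40 were at least 2-fold higher. Day 3 and sham arrays did not overlap for 39 members, all with day 3 higher. Over all tested genes the share was 51.7%, with day 3 higher in 22.2% and lower in 29.5%. Nek2 was the member not called. In whole kidney RNA, more cells in mitosis and more RNA per cell cannot be told apart. A probe entered the test if it was well above background on all 4 arrays of any group. Through day 3 alone, 14 members entered, so the filter itself favoured a higher day 3 signal for those. They were Ccnb2, Ccna2, Cdc25c, Melk, Aurka, Cdca8, Bub1, Bub1b, Ttk, Nuf2, Cdca3, Kif2c, Nusap1 and Tpx2. Of the other 27, 26 were higher at day 3, but some of these passed the filter through injured groups and not through sham. Of the 17 members well above background on all 12 arrays, 16 were higher.

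At day 7 the same list was split. Against sham, 20 of 41 were higher, 0 lower and 21 not called, with 18.8% of all tested genes called, 8.21% higher. The median log2 difference was 1.29, against -0.07 over all tested genes, and arrays did not overlap for 15 members, all with day 7 higher, against 21.7% of all genes, where 9.03% had day 7 higher and 12.6% had it lower. Of the 27 members that did not enter through day 3 alone, 16 were higher, but some of these passed the filter through injured groups and not through sham. Of the 17 members well above background on all 12 arrays, 7 were higher. Against day 3, 37 of 41 were lower at day 7 and 0 higher, where 31.4% of all tested genes were called and 13.4% were lower. Here the median log2 difference was -1.81, against 0.05 over all tested genes, and Cdc25b, Incenp, Kif11 and Racgap1 were the members not called. The filter favoured a lower day 7 than day 3 signal for the 14 members that entered through day 3 alone. Of the other 27, 23 were lower at day 7 than at day 3. Of the 17 well above background on all 12 arrays, 14 were lower. Both comparisons with sham use the same sham arrays, and both comparisons of day 7 use the same day 7 arrays.

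The probe was well above background on all 4 day 3 arrays for 41 members. On day 7 arrays, 27 members were so on all 4, 9 on some and 5 on none, and on sham arrays 17 on all 4, 15 on some and 9 on none. Where a group had none, only a bound on the fold can be given, with the dim arrays set at the lowest signal well above background or at their own value if higher. With 9 members at their bound, the median log2 difference of day 3 from sham was 2.81. At day 7, 4 members had a bound, 7 had no fold that could be given (3 of them above background in neither group) and were set at 0, and the median was 0.71.

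**Figure D2:**
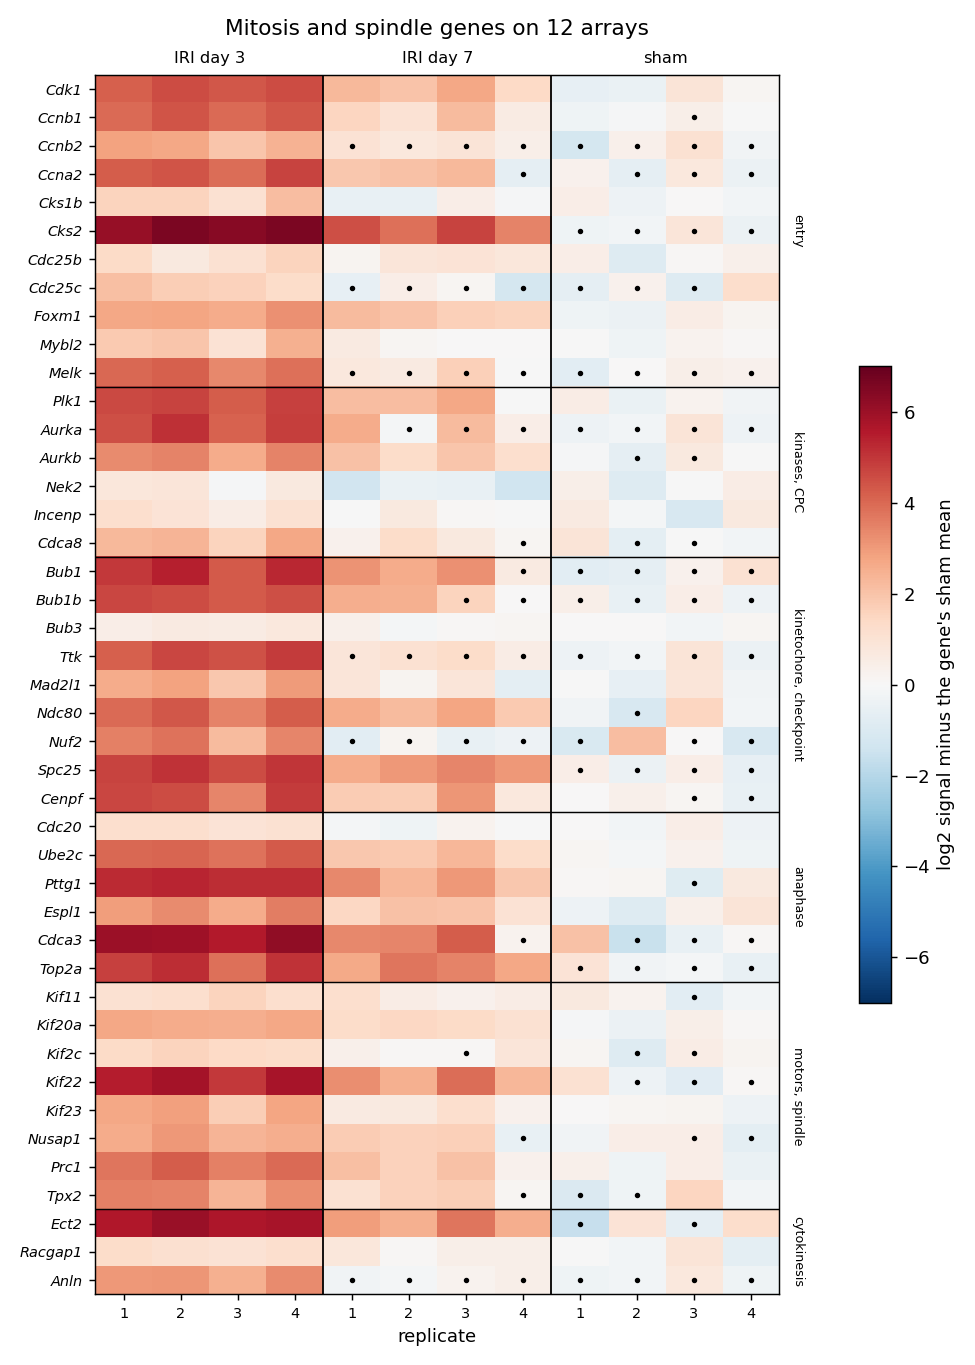
Log2 signal of 43 genes on 12 arrays minus the gene's sham mean, with genes in rows by role, arrays in columns (IRI day 3, IRI day 7, sham) and a dot where the spot was not well above background. All 4 day 3 columns are red for most genes, and day 7 replicate 4 is the palest of the day 7 columns.

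Leaving out arrays 1 at a time kept the count of members called at 39 to 40 for day 3 against sham, 16 to 22 for day 7 against sham and 34 to 39 for day 7 against day 3. Without day 7 replicate 4 and sham replicate 3 together, an alternative chosen after seeing the data, the counts were 39, 24 and 38. Within slides 1, 2 and 3, each of which held all 3 groups, the median of the members was 2.96, 3.91 and 2.85 for day 3 against sham, 1.46, 2.06 and 0.62 for day 7 against sham, and -1.29, -1.63 and -2.47 for day 7 against day 3. Another background correction, normexp on the raw spot signal, left 19 members higher at day 3, 0 higher at day 7 and 4 lower at day 7 than at day 3. With the few spots below their local background removed from it, the counts were 36, 14 and 36.

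Genes for entry into mitosis and for its transcription were higher at day 3 in all 11 cases, and 4 of the 11 (Cdk1, Ccnb1, Cks2 and Foxm1) were also higher at day 7. Cdk1 is the kinase that starts mitosis. Its values were 0.81, 1.21, 0.98 and 1.20 in IRI day 3 kidneys, -1.08, -1.35, -0.63 and -1.95 in IRI day 7 kidneys and -3.93, -3.82, -2.44 and -3.24 in sham kidneys. The 3 groups did not overlap, with day 7 between the others. The log2 difference from sham was 4.41 ± 0.33 (SE) at day 3 (adjusted p = 4.65e-06) and 2.11 ± 0.33 at day 7 (adjusted p = 0.00226). Ccnb1 encodes cyclin B1, a partner of Cdk1. It stood at 0.28, 0.71, 0.29 and 0.67 at day 3, -2.16, -2.67, -1.47 and -3.12 at day 7 and -4.01, -3.77, -3.25 and -3.71 in sham. Every day 3 array was above every day 7 array, and every day 7 array above every sham array, the nearest by little: -3.12 on day 7 replicate 4 and -3.25 on sham replicate 3. The differences from sham were 4.17 ± 0.30 at day 3 and 1.33 ± 0.30 at day 7 (adjusted p = 0.0123). Ccnb2, for cyclin B2, gave -2.17, -2.28, -3.02 and -2.53 at day 3, -3.98, -4.23, -4.09 and -4.58 at day 7 and -6.19, -4.61, -3.88 and -5.22 in sham, and was above background on day 3 arrays only. It was at least 2.76-fold higher at day 3 than in sham (adjusted p = 2.87e-04), while day 7 and sham overlapped and no fold is given. Without sham replicate 3, Ccnb2 was called at day 7 (adjusted p = 0.0469), again on values below background.

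The small Cdk-binding proteins Cks1b and Cks2 had different values. Cks2, whose probe (rn4 chr17:19423579-19423638) had the largest fitted difference of this role, stood at 0.28, 0.74, 0.56 and 0.75 at day 3, -1.33, -1.96, -1.09 and -2.34 at day 7 and -6.14, -5.99, -4.96 and -6.22 in sham. It was not well above background on any sham array, and no groups overlapped. It was at least 23.4-fold higher at day 3 than in sham (adjusted p = 7.49e-07) and at least 4.87-fold higher at day 7 (adjusted p = 7.17e-05). Cks1b stood at -0.14, -0.16, -0.62 and 0.46 at day 3, -2.23, -2.20, -1.25 and -1.77 at day 7 and -1.23, -2.05, -1.66 and -1.87 in sham. Day 3 was above both other groups, which overlapped: its difference from sham was 1.59 ± 0.28 at day 3 (adjusted p = 5.30e-04) and -0.16 ± 0.28 at day 7 (adjusted p = 0.735). Its other tested probe gave 2.55 at day 3 and, without a call, 1.12 at day 7, so the probes of Cks1b differ in sign at day 7. Whether Cks1b and Cks2 differ in response was not tested.

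Phosphatases of the Cdc25 family remove the inhibitory phosphates from Cdk1. Cdc25b (rn4 chr3:118902560-118902619), with the smallest difference of this role, stood at 0.05, -0.59, -0.23 and 0.28 at day 3, -1.10, -0.45, -0.34 and -0.50 at day 7 and -0.85, -2.19, -1.20 and -0.92 in sham. Day 3 was above sham on every array and overlapped with day 7, with a difference from sham of 1.17 ± 0.30 at day 3 (adjusted p = 0.00588) and 0.69 ± 0.30 at day 7 (adjusted p = 0.128). Its other tested probe gave 0.21 at day 3, not called, and the probes differed in sign between day 7 and day 3, at -0.48 and 0.06. Cdc25c gave -2.39, -2.79, -2.86 and -3.23 at day 3, -5.06, -4.01, -4.33 and -5.73 at day 7 and -5.13, -4.18, -5.38 and -3.28 in sham. It was above background on no day 7 array, and sham replicate 4 was the sham array nearest to day 3. It was 1.68 ± 0.46 higher at day 3 than in sham (adjusted p = 0.00885) and at least 2.07-fold lower at day 7 than at day 3 (adjusted p = 0.00975).

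Foxm1 encodes the factor that drives G2 and M phase transcription together with Mybl2. Foxm1 stood at -0.40, -0.31, -0.51 and 0.11 at day 3, -0.89, -1.11, -1.41 and -1.53 at day 7 and -3.41, -3.51, -2.59 and -2.91 in sham. The groups did not overlap and day 7 lay closer to day 3, with differences from sham of 2.82 ± 0.23 at day 3 (adjusted p = 6.14e-06) and 1.87 ± 0.23 at day 7 (adjusted p = 6.85e-04), and of -0.96 ± 0.23 at day 7 against day 3 (adjusted p = 0.0110). The other probe of Foxm1 gave 1.65 at day 3 and 0.27 at day 7, the day 7 value not called. Mybl2 was 1.81 ± 0.27 higher at day 3 (adjusted p = 1.98e-04) and 0.20 ± 0.27 from sham at day 7 (adjusted p = 0.655). Ccna2 (cyclin A2) and Melk (a kinase of dividing cells) were also higher at day 3, by 4.31 ± 0.55 and by at least 4.92-fold, and neither was called at day 7. Ccna2 was above background on 3 of 4 day 7 arrays and on 1 sham array. Its other probe, above background on 1 day 7 array and no sham array, was called at day 7 with no fold to be given. Without day 7 replicate 4, the probe that stands for Ccna2 was also called, at 2.06 (adjusted p = 0.00251).

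Among mitotic kinases and the chromosomal passenger complex, 5 of 6 were higher at day 3 and Plk1 and Aurkb at day 7. Plk1, polo-like kinase 1, acts at spindle poles, kinetochores and the midzone. It stood at 2.15, 2.24, 1.72 and 2.28 at day 3, -0.36, -0.33, 0.22 and -2.52 at day 7 and -1.99, -2.99, -2.25 and -2.76 in sham. Day 7 replicate 4 lay among the sham arrays, while the other 3 day 7 arrays lay above all of them. The difference from sham was 4.60 ± 0.48 at day 3 (adjusted p = 2.11e-05) and 1.75 ± 0.48 at day 7 (adjusted p = 0.0264). The day 7 call was lost without day 7 replicate 1, 2 or 3 or sham replicate 2 or 4, at 1.43 to 1.66 (adjusted p = 0.0531 to 0.0758). The aurora kinases act at centrosomes (Aurka) and, with Incenp and Cdca8 (borealin), in the passenger complex on chromosomes (Aurkb). Aurka (rn4 chr3:163271264-163271323) stood at -1.35, -0.75, -1.73 and -1.04 at day 3, -3.27, -5.97, -3.63 and -5.39 at day 7 and -6.21, -6.05, -4.96 and -6.24 in sham. It was above background on 1 day 7 array and on no sham array, and was at least 6.71-fold higher at day 3 than in sham (adjusted p = 4.19e-05), with no call at day 7 (adjusted p = 0.116) unless day 7 replicate 2 was left out (adjusted p = 0.0343). Aurkb stood at -0.02, 0.13, -0.72 and 0.16 at day 3, -1.29, -2.01, -1.39 and -2.16 at day 7 and -3.41, -3.93, -2.61 and -3.32 in sham. Its groups did not overlap, and it was 3.21 ± 0.30 higher at day 3 and 1.61 ± 0.30 higher at day 7 (adjusted p = 0.00516).

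Nek2, a NIMA-family kinase that parts the centrosomes, was the exception at day 3. Its probe (rn4 chr13:107907193-107907252) gave -0.45, -0.36, -1.29 and -0.54 at day 3, -2.59, -1.67, -1.74 and -2.63 at day 7 and -0.84, -2.10, -1.26 and -0.70 in sham. Day 3 and sham overlapped, and 2 of the day 7 arrays lay below every sham array. The difference from sham was 0.56 ± 0.34 at day 3 (adjusted p = 0.177) and -0.93 ± 0.34 at day 7 (adjusted p = 0.0771), neither called, and day 7 was -1.50 ± 0.34 against day 3 (adjusted p = 0.00866). The other probe of Nek2 gave 0.47 at day 3 and -1.0 at day 7 against sham, neither called. Without sham replicate 2, the day 7 difference of Nek2 was -1.22 and was called (adjusted p = 0.0246). Incenp, the scaffold of the passenger complex, stood at 1.54, 1.36, 0.90 and 1.47 at day 3, 0.35, 1.05, 0.46 and 0.38 at day 7 and 0.99, 0.24, -0.74 and 1.07 in sham. It was 0.93 ± 0.35 higher at day 3, close to the threshold (adjusted p = 0.0391), and the groups overlapped. The call was lost without sham replicate 3, at 0.55, and without day 3 replicate 1, 2 or 4 or sham replicate 2, at 0.85 to 0.92 (adjusted p = 0.0743 to 0.0897). Between day 7 and day 3, Incenp was called without sham replicate 3, at -0.76. Cdca8 was 2.23 ± 0.36 higher at day 3 and not called at day 7.

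Kinetochore and spindle checkpoint genes were higher at day 3 in all 9 cases and at day 7 in 6 of 9, and all 9 were lower at day 7 than at day 3. Of the 9, Bub1, Bub1b, Ttk and Nuf2 entered the test through day 3 alone. Bub1 and Bub1b (BubR1) are checkpoint kinase-like proteins at kinetochores. Bub1 (rn4 chr3:115324612-115324671), with the largest fitted difference of the role, stood at -0.73, -0.26, -1.40 and -0.42 at day 3, -2.55, -3.08, -2.50 and -5.04 at day 7 and -6.43, -6.32, -5.42 and -4.61 in sham. Day 7 replicate 4, not above background, fell among the sham arrays, none of which was above background, so that its rank among the genes of the role is not settled. Bub1 was at least 9.6-fold higher at day 3 and at least 1.59-fold higher at day 7 than in sham (adjusted p = 3.20e-05 and 0.0132). Bub1b stood at -0.98, -1.10, -1.38 and -1.16 at day 3, -3.12, -3.17, -4.10 and -5.65 at day 7 and -5.26, -6.21, -5.22 and -6.02 in sham. It was at least 7.01-fold higher at day 3 (adjusted p = 2.12e-05), and at day 7 it was called (adjusted p = 0.0299) with 2 of 4 day 7 arrays above background and no fold can be bounded. That call was lost without day 7 replicate 1, 2 or 3 or sham replicate 2 or 4 (adjusted p = 0.0623 to 0.0824). Bub3 (rn4 chr1:191139310-191139369), their partner, had the smallest difference of the role, with 2.59, 2.80, 2.70 and 2.87 at day 3, 2.48, 2.02, 2.22 and 2.31 at day 7 and 2.20, 2.17, 1.95 and 2.26 in sham. Every day 3 array was above the others, and the difference from sham was 0.60 ± 0.14 at day 3 (adjusted p = 0.00347) and 0.11 ± 0.14 at day 7 (adjusted p = 0.617). The call of Bub3 between day 7 and day 3 was lost without day 3 replicate 2 or 4 or day 7 replicate 2, at -0.46 to -0.40. The other tested probe of Bub3 was above background on every array. It gave 1.42 at day 3 and -0.83 at day 7 against day 3, both called, and 0.59 at day 7 against sham, not called.

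Ttk, the checkpoint kinase Mps1, stood at -1.62, -1.14, -1.36 and -0.89 at day 3, -4.99, -4.72, -4.55 and -5.28 at day 7 and -6.16, -5.98, -4.90 and -6.20 in sham. It was above background on all day 3 arrays and on no day 7 or sham array. It was at least 6.56-fold higher at day 3 than in sham (adjusted p = 2.31e-06), and its day 7 call (adjusted p = 0.0436) compares values below background and carries no fold. The day 7 call of Ttk was kept only without day 3 replicate 4, day 7 replicate 4 or sham replicate 3 (adjusted p = 0.0523 to 0.115 without each of the other 9 arrays). Ndc80, Nuf2 and Spc25 belong to the Ndc80 complex, which holds microtubules at the kinetochore. Spc25 stood at -1.22, -0.86, -1.39 and -0.96 at day 3, -3.35, -2.88, -2.55 and -2.89 at day 7 and -5.47, -6.35, -5.45 and -6.49 in sham, with no overlap among the groups. It was at least 7.25-fold higher at day 3 and at least 2.07-fold higher at day 7 than in sham (adjusted p = 1.04e-06 and 1.02e-04). Ndc80 stood at 1.11, 1.54, 0.66 and 1.41 at day 3, -0.22, -0.61, -0.08 and -1.0 at day 7 and -3.10, -3.94, -1.31 and -3.01 in sham, where replicate 3 was far the highest sham array. It was 4.02 ± 0.45 higher at day 3 and 2.36 ± 0.45 higher at day 7 (adjusted p = 0.00529), and its call between day 7 and day 3 was lost without day 3 replicate 2 or 4 or day 7 replicate 4, at -1.58 to -1.48. Nuf2 was 3.25 ± 0.62 higher at day 3 (adjusted p = 9.14e-04). It was above background on 1 sham array and no day 7 array, and at day 7 was at least 3.56-fold lower than at day 3. Cenpf, a large protein of the outer kinetochore, stood at 1.12, 1.0, -0.16 and 1.31 at day 3, -1.79, -1.82, -0.45 and -2.84 at day 7 and -3.55, -3.20, -3.44 and -4.07 in sham. It was 4.38 ± 0.45 higher at day 3 and 1.84 ± 0.45 higher at day 7 (adjusted p = 0.0162). The other tested probe of Cenpf gave 3.61 at day 3 and 1.18 at day 7, the day 7 value not called. Mad2l1, the checkpoint protein Mad2, was 2.57 ± 0.38 higher at day 3 and 0.31 from sham at day 7 without a call.

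Genes grouped here under anaphase, Cdca3 and Top2a among them, were higher at day 3 in all 6 cases. At day 7, 5 of the 6 were higher, all but Cdc20. Pttg1 is securin, which holds back separase (Espl1), and Ube2c is the E2 enzyme that serves the anaphase-promoting complex. Pttg1 stood at 1.59, 1.72, 1.57 and 1.56 at day 3, -0.26, -1.31, -0.58 and -1.74 at day 7 and -3.53, -3.48, -4.48 and -2.96 in sham. The day 3 arrays lay within a narrow band and no groups overlapped. The difference from sham was 5.22 ± 0.35 at day 3 (adjusted p = 2.34e-06) and 2.64 ± 0.35 at day 7 (adjusted p = 8.40e-04). Ube2c stood at 1.47, 1.55, 1.27 and 1.77 at day 3, -0.62, -0.71, -0.21 and -1.26 at day 7 and -2.40, -2.65, -2.24 and -2.82 in sham. Its 3 groups were apart, with differences from sham of 4.04 ± 0.22 at day 3 and 1.83 ± 0.22 at day 7 (adjusted p = 9.71e-07 and 5.60e-04). Espl1 stood at 0.30, 0.73, 0.02 and 1.0 at day 3, -1.15, -0.52, -0.61 and -1.61 at day 7 and -2.94, -3.50, -2.24 and -1.72 in sham. It was 3.11 ± 0.38 higher at day 3 and 1.62 ± 0.38 higher at day 7 (adjusted p = 0.0133). Cdc20 (rn4 chr5:138913267-138914237), the activator of the complex at anaphase, stood at 1.08, 1.10, 0.84 and 0.96 at day 3, -0.21, -0.42, 0.17 and -0.10 at day 7 and -0.06, -0.30, 0.39 and -0.43 in sham. Every day 3 array was above the others, and day 7 and sham overlapped: it was 1.09 ± 0.19 higher at day 3 (adjusted p = 5.14e-04) and -0.04 ± 0.19 from sham at day 7 (adjusted p = 0.908).

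Cdca3, a target of the anaphase-promoting complex that promotes entry into mitosis, had the largest fitted difference of the role (rn4 chr4:160956486-160956545). It stood at 1.17, 1.14, 0.76 and 1.37 at day 3, -1.43, -1.38, -0.57 and -4.53 at day 7 and -2.78, -6.39, -5.31 and -4.75 in sham. Sham replicate 1 was the single sham array above background, and day 7 replicate 4 fell among the sham arrays. It was 5.92 ± 0.83 higher at day 3 (adjusted p = 1.20e-04) and 2.83 ± 0.83 higher at day 7 (adjusted p = 0.0347). The day 7 call was lost without day 7 replicate 1, 2 or 3 or sham replicate 2, 3 or 4, at 2.30 to 2.84 (adjusted p = 0.0575 to 0.0984). Top2a, the topoisomerase that untangles sister chromatids, stood at -0.39, -0.01, -1.29 and -0.08 at day 3, -2.52, -1.43, -1.69 and -2.44 at day 7 and -4.22, -5.41, -5.31 and -5.70 in sham. No groups overlapped and no sham array was above background, and Top2a was at least 11.2-fold higher at day 3 and at least 3.75-fold higher at day 7 (adjusted p = 5.70e-06 and 5.79e-04).

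**Figure D3:**
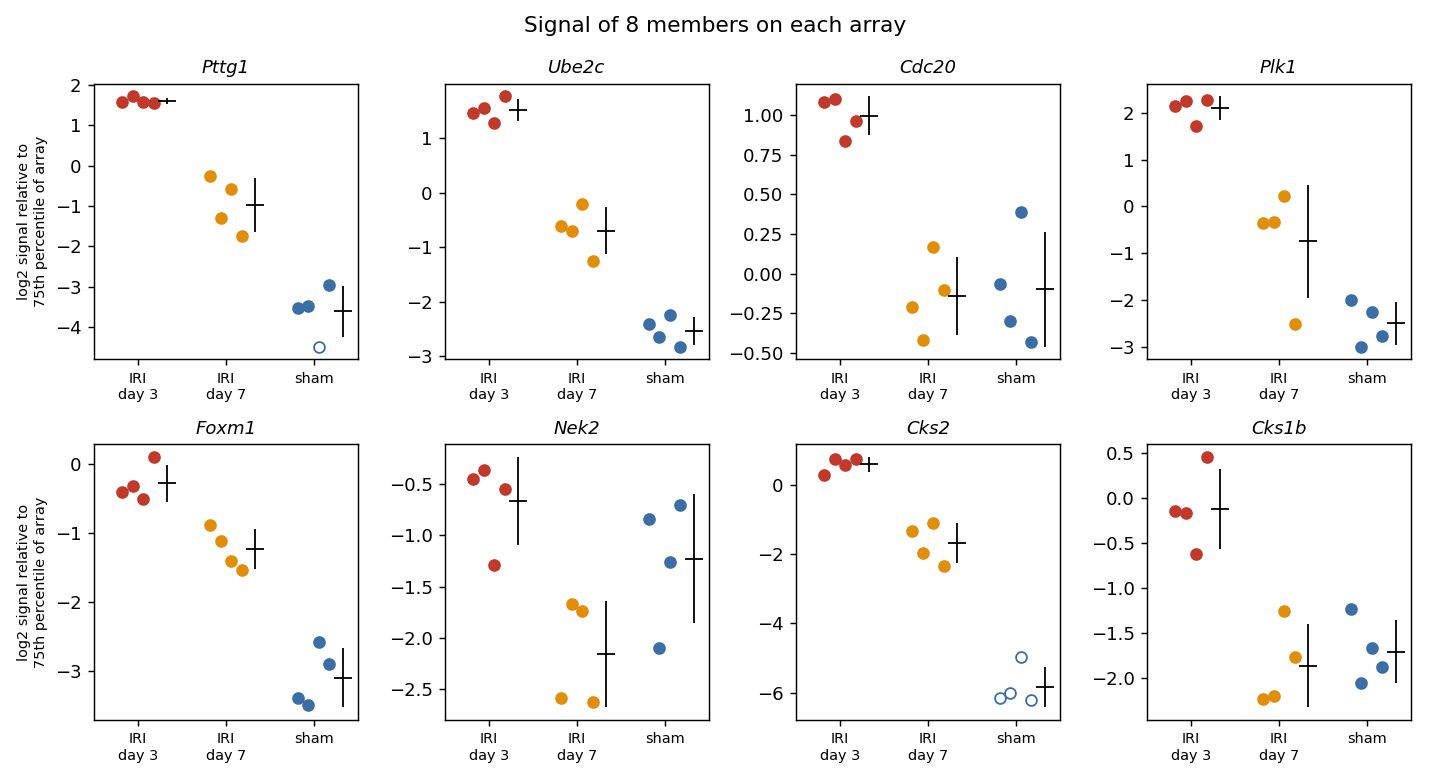
Log2 signal of 8 members over each array's 75th percentile, with 1 point per array (open where not well above background), and the mean ± SD (n = 4) beside each group. Day 3 lies above day 7 and sham for Pttg1, Ube2c, Plk1, Foxm1, Cks2, Cdc20 and Cks1b, while Nek2 at day 3 overlaps with sham.

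Spindle motors and microtubule proteins were higher at day 3 in all 8 cases, and Kif20a, Kif22 and Prc1 were higher at day 7. Kif22, a chromokinesin, had the largest fitted difference of the role (rn4 chr1:186205189-186205248). It stood at 1.08, 1.42, 0.56 and 1.35 at day 3, -1.15, -1.90, -0.48 and -2.08 at day 7 and -3.34, -4.75, -5.17 and -4.33 in sham, above background on 1 sham array. Its groups did not overlap, and it was 5.50 ± 0.42 higher at day 3 and 2.99 ± 0.42 higher at day 7 (adjusted p = 4.67e-06 and 0.00117). Kif20a, a motor of the spindle midzone, stood at 1.59, 1.48, 1.43 and 1.62 at day 3, 0.20, 0.32, 0.25 and -0.03 at day 7 and -1.21, -1.49, -0.73 and -1.01 in sham. Each group lay in a narrow range, and the differences from sham were 2.64 ± 0.17 at day 3 and 1.29 ± 0.17 at day 7 (adjusted p = 2.31e-06 and 7.78e-04). Prc1, which bundles microtubules of the midzone, stood at 0.41, 0.91, 0.19 and 0.62 at day 3, -1.21, -1.73, -1.28 and -3.01 at day 7 and -3.01, -3.63, -2.89 and -3.81 in sham. Day 7 replicate 4 was among the sham arrays, and Prc1 was 3.87 ± 0.37 higher at day 3 and 1.53 ± 0.37 higher at day 7 (adjusted p = 0.0154). Kif11 (rn4 chr1:241722721-241722780), the motor that pushes the poles apart, had the smallest difference of the role, with -1.91, -1.79, -1.40 and -1.81 at day 3, -1.79, -2.46, -2.64 and -2.44 at day 7 and -2.25, -2.73, -3.71 and -3.17 in sham. Day 3 overlapped with day 7 but not with sham, and it was 1.24 ± 0.29 higher at day 3 (adjusted p = 0.00326) and 0.63 ± 0.29 from sham at day 7 (adjusted p = 0.144). Kif2c, Kif23, Nusap1 and Tpx2 were higher at day 3 by 1.40, 2.51, 2.62 and 3.15, and were not called at day 7. They were called at day 7 without a single array in 3 cases: Nusap1 without day 7 replicate 4 (1.68), Tpx2 without sham replicate 3 (1.64) and Kif23 without day 3 replicate 3 (0.71). The call of Nusap1 between day 7 and day 3 was lost without day 3 replicate 1, 2 or 4, at -1.52 to -1.36.

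Of the cytokinesis genes, Racgap1, a GTPase-activating protein of the midzone, was found by name (rn4 chr7:138366770-138366829). It stood at -0.90, -1.10, -1.16 and -0.99 at day 3, -1.41, -2.13, -1.79 and -1.77 at day 7 and -2.20, -2.36, -1.31 and -2.89 in sham. All day 3 arrays lay above both other groups, and it was 1.15 ± 0.28 higher at day 3 (adjusted p = 0.00399) and 0.42 ± 0.28 from sham at day 7 (adjusted p = 0.318). Without sham replicate 3, Racgap1 was called at day 7, at 0.71 (adjusted p = 0.0406), and between day 7 and day 3 it was called without sham replicate 3 or 4, at -0.74. The probe described as Ect2 protein, the exchange factor that Racgap1 activates, was 5.78 ± 0.53 higher at day 3 and 2.93 ± 0.53 higher at day 7 (adjusted p = 1.10e-05 and 0.00427). A probe described as predicted anillin, which scaffolds the contractile ring, was at least 1.78-fold higher at day 3 than in sham (adjusted p = 9.98e-06). Its position on rn4 is chromosome 17, while the RefSeq promoter of Anln lies on chromosome 8 of GRCr8, so its identity is uncertain.

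**Figure D4:**
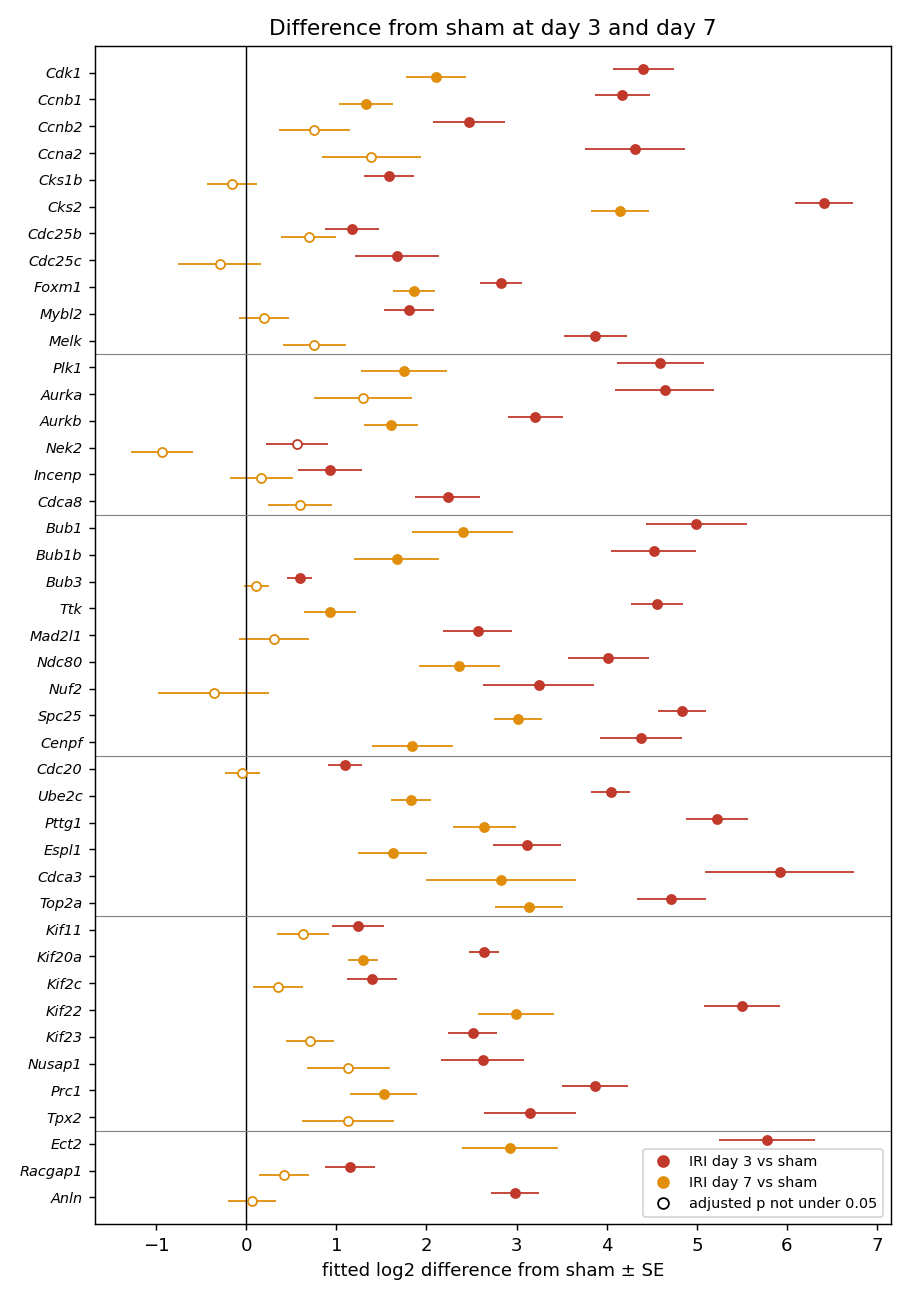
Fitted log2 difference from sham (x axis, ± SE) of 43 genes at day 3 (red) and day 7 (orange), with genes in rows by role and open points where the adjusted p was not under 0.05. At day 3, 40 of the 41 members found by name are filled, and at day 7, 20 are; the fitted values of the 9 above background on no sham array are not measured folds.

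Positions are those of the probes on rn4, per the file headers, and no annotation of that build was used to place them in an exon or untranslated region. Of 17 members found by name, with a promoter and higher at day 7, 8 held CHR letters near the start with at least 2 copies of CCAAT. Of 17 such members not called at day 7, 2 did. Other motif classes differed less in count or about as much. CHR letters anywhere stood in 13 of the former and 11 of the latter, and near the start in 11 and 5. CCAAT stood in 14 and 11, at least 2 copies in 12 and 8, and CHR letters with any CCAAT in 11 and 9. These counts describe members chosen with their values known and were not tested.

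Other genes of the same processes were counted in lists. The filter on dim probes applied to these lists too. It favoured a higher day 3 signal for genes that entered through day 3 alone, and those were not counted apart. Among further mitosis genes, Cenpl, Ska1, Mastl and Ccnf were well above background on only 4 arrays. Of 40 tested of 53 further mitosis genes, 33 were higher and 0 lower at day 3 (median fitted log2 difference 2.72), 8 higher and 3 lower at day 7 (median 0.57), and 34 lower and 0 higher at day 7 against day 3. The largest fitted differences at day 3 were those of the spindle gene Aspm, the midbody gene Cep55 and the kinase Pbk, none of them above background on any sham array, with bounds of at least 13.9-fold for Aspm, 16.4-fold for Cep55 and 6.82-fold for Pbk. The 3 that were lower at day 7 than in sham were Wee1, the kinase that restrains Cdk1, at -1.16 ± 0.28 (adjusted p = 0.0144), the kinetochore gene Zwint at -0.83 ± 0.15 (adjusted p = 0.00479) and the centromere chaperone gene Hjurp at -0.60 ± 0.18 (adjusted p = 0.0342). None of these 3 was called at day 3. Of 14 condensin and cohesin genes, 10 were higher at day 3 (median 0.88), with the largest fitted differences in the condensin genes Ncapg (at least 5.60-fold), Ncaph (at least 3.61-fold) and Smc2 (2.80 on the log2 scale), and 2 were lower: Cdca5 (sororin) at -1.71 ± 0.28 (adjusted p = 3.23e-04) and Stag2 at -0.33 ± 0.13 (adjusted p = 0.0418). At day 7, 4 of the 14 were higher and Cdca5 was lower, at -0.92 ± 0.28.

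Core subunits of the anaphase-promoting complex had smaller differences. Of 11 tested, 6 were higher at day 3 (median 0.75) and 2 at day 7, and 3 were lower at day 7 than at day 3. Of 11 DREAM and E2F regulators, 6 were higher at day 3 (median 0.71), among them Rbl1 (above background on no sham array, at least 2.63-fold), E2f8 (2.44) and Tfdp1 (2.11), and Tfdp1 was called at day 7. Of 20 DNA replication genes, 19 were higher at day 3 (median 2.45), with the largest fitted differences in Rrm2 (5.49), Mcm3 (4.58) and Mcm6 (above background on no sham array, at least 9.26-fold), 8 were higher at day 7 (median 0.81), and 18 were lower at day 7 than at day 3. These lists were read as counts beside the 24.2%, 8.21% and 13.4% of all tested genes called in those directions.

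**Figure D5:**
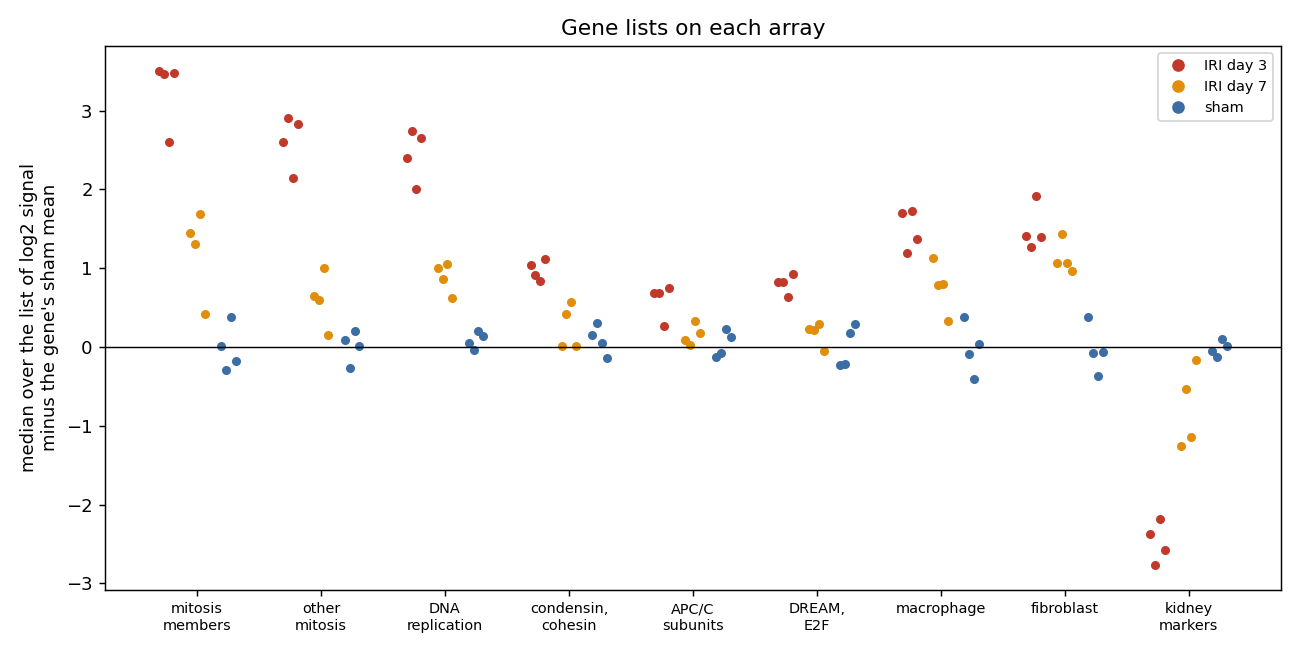
Median over each gene list of log2 signal minus the gene's sham mean, with 1 point per array and groups in the order IRI day 3, IRI day 7 and sham. Mitosis, further mitosis and replication lists are highest on day 3 arrays, and kidney markers are lowest there.

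Markers of other cell types moved beside these groups, and their counts stand against 24.2% of all tested genes higher and 33.1% lower at day 3, 8.21% higher and 10.6% lower at day 7, and 18% higher at day 7 than at day 3. Macrophage markers were higher at day 3 in 5 of 8 tested and lower in 0, and the sum of their linear signals relative to the 75th percentile was 22.5 to 30.5 at day 3, 17.2 to 24.1 at day 7 and 8.72 to 12.7 in sham. Cd163 and Mrc1, macrophage markers, were above background on at most 1 array and not tested. Of the fibroblast markers, Postn was above background on 1 array and not tested, and the other 5 were higher at day 3 and at day 7, with sums of 75.7 to 120 at day 3, 54.8 to 73.6 at day 7 and 15 to 26.7 in sham. T and NK lymphocyte markers were higher in 2 of 7 and lower in 1 at day 3. Endothelial markers were lower in 4 of 6 at day 3 and at day 7. Of the kidney markers, 6 of 6 were lower at day 3 than in sham, 1 of 6 at day 7, and 6 of 6 were higher at day 7 than at day 3. On day 7 replicate 4, where the mitosis genes were lowest of the group, the median of kidney markers was the highest of the day 7 arrays, at -0.17, and that of macrophage markers the lowest, at 0.32. What part any of these cells has in the mitosis genes was not tested.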

How the data were processed

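Total RNA of the left kidney was labelled with Cy3 for a single-colour Agilent array, per the labels. Per the file headers, Agilent Feature Extraction 9.5.1.1 turned the scans into spot values, among them a processed signal, an intensity that is background-subtracted but not normalized between arrays, and the headers place probes on rn4. The deposited value table of the authors is on a log2 scale and, set against the scanner values, is centred on each array's 75th percentile and each probe's median (lowest correlation 0.998); it served as an alternative, and its direction matches the scanner values.

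From the scanner files, the processed signal was put on a log2 scale, less that array's 75th percentile. Spots with a non-uniformity or population outlier flag were dropped, and repeat spots were averaged. Probes had to be well above background on every array of any group, leaving 21071 of 30367 probes, and the brightest stood for its gene, which left 18517 genes. Probes were named through RefSeq (GRCr8): 17998 by accession, 2362 by symbol, 616 by synonym, and 9391 kept the file's name. A single limma 3.58.1 fit (R 4.3.3; lmFit, eBayes) held all 3 groups, two-sided, with Benjamini-Hochberg adjustment over all 18517 genes and a threshold of 0.05. The fit was tested on simulated data. Values per array, bounds and promoter motifs were computed as the text describes.

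Alternatives were 2 forms of normexp background correction with an offset of 50, total and quantile scaling, the authors' values, other filters and probe rules, blocks for slide, scan batch and replicate number, fits of 2 groups alone, and leaving out each array. All members get values by role; values on every array are given for the largest and smallest day 3 difference of each role, members called at day 7, probes that disagree, and paralog pairs, and other lists name at most the 3 largest and every gene called the other way. The members and all lists were chosen with earlier results of these data known. The labels give 4 separate rats per group, so p-values measure the spread between rats. The search for protein motifs was not run, because no protein sequences were used here.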

Additional observations from a re-analysis of the deposited data

Results flagged for a closer look

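In 7 of the 129 groups of 4 arrays looked at (43 genes in 3 groups, with the probes described as Ect2 and Anln included), 1 array lay far from the other 3, and chance alone flags about 1 in 20 groups. Ccna2 was at -4.45 on day 7 replicate 4, against -1.95 to -1.54 on the other day 7 arrays. Nusap1 was at -4.15 on day 7 replicate 4, against -2.03 to -1.88. Incenp was at 1.05 on day 7 replicate 2, against 0.35 to 0.46. Kif23 was at 0.54 on day 3 replicate 3, against 1.55 to 1.68. On sham replicate 3, Aurka was at -4.96, against -6.24 to -6.05 on the other sham arrays, Ttk was at -4.90, against -6.20 to -5.98, and the probe described as Anln was at -5.35, against -6.43 to -6.28. For these 3 genes no sham array was well above background.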

How the results depend on the processing

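Total scaling, quantile scaling, the authors' values, no filter, probe averaging and blocks for slide or scan batch left 40 members higher at day 3, 18 to 22 at day 7, and 37 to 38 lower at day 7 than at day 3. Total scaling moved the share of higher calls over all genes to 58.6% at day 3 and 78.0% at day 7, against 42.2% and 43.6%, and the median of all genes to 0.15 and 0.17, against -0.13 and -0.07; quantile scaling moved the share to 50.2% and 55.7%. Fits of 2 groups alone gave 39, 16 and 40 members for day 3 against sham, day 7 against sham and day 7 against day 3, and 2088 genes in all at day 7, against 3486. Normexp gave 19, 0 and 4 members, with medians of 0.87, -0.10 and -0.84, and 3167, 91 and 159 genes in all, against 10610, 3486 and 5820. Without the 5 to 24 spots below local background on each of 6 arrays, it gave 36, 14 and 36, with medians of 1.57, 0.41 and -1.24, and Nek2 was then called lower at day 7. Under plain normexp, among the members called, the sign turned at day 3 for Ccnb2 (-0.44), Cdc25c (-0.53), Kif11 (-0.10) and Kif2c (-0.43), at day 7 for Ccnb1 (-0.20), Aurkb (-0.10), Bub1 (-0.14), Bub1b (-0.28), Ttk (-0.40), Spc25 (-0.047) and Prc1 (-0.013), and between day 7 and day 3 for Ccnb2 (0.091) and Kif2c (0.038); without those spots it turned for Ttk at day 7 (-0.20). Beyond the removed spots, the cause was not tested. Probes well above background on all 12 arrays left 17 members to test, with 16, 7 and 15 called and medians of 2.51, 0.69 and -1.50. With 1 array left out, the counts were 39 to 40, 16 to 22 and 34 to 39, and the medians 3.00 to 3.44, 0.98 to 1.57 and -1.98 to -1.68. Incenp at day 3, Bub1b, Cdca3, Plk1 and Ttk at day 7, and Bub3, Ndc80 and Nusap1 between the days lost their calls in some of these. Over all tested genes, 2041 to 3478 were called at day 7 and 3478 to 6672 between the days.

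Nothing in the labels pairs rats by replicate number. Over 12 pairs of arrays with the same number, deviations from the group means correlated at -0.33 to 0.14, and 3 matched best with their own number. Arrays with the same number always lay on different slides, so this check cannot decide whether the numbers pair rats. A replicate block gave 40, 18 and 37 members, losing Cdca3 and Ttk at day 7. Dim signals limit the folds of the 9 members above background on no sham array. They also enter the sham means of the 15 members above background on only some sham arrays.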
